A study of Mus musculus with 6 samples.

Results

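The genes described here are the Wnt ligands, their receptors and co-receptors, the secreted and membrane proteins that amplify or block them, and target genes of the pathway. They were chosen by symbol from a fixed list of 54 genes, and 54 of the 54 were found among the 20325 genes of the deposited table: 19 Wnt ligands, 3 R-spondins, 10 frizzled receptors, 3 co-receptors, 2 Lgr receptors, 12 antagonists and 5 target genes. RNA was sequenced from 6 samples of C3H10T1/2 cells, a line of mesenchymal progenitors derived from mouse embryos of the C3H strain and able to become cartilage, bone or fat cells. The knockdown group of 3 received small interfering RNAs against both Ring1a and Ring1b, and the control group of 3 received a scrambled small interfering RNA. Both groups were parental cells of this line at passage 10 to 15. They stand for this line and not for a tissue, and the labels number the replicates without saying whether they were separate cultures, so the p-values reflect only how these samples vary among themselves, which can be technical variation. Ring1a and Ring1b, encoded by Ring1 and Rnf2, are the catalytic subunits of the first Polycomb repressive complex, which marks histone H2A with ubiquitin and helps to keep developmental genes silent.

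Wnt proteins are lipid-modified secreted ligands that bind frizzled receptors. With the co-receptors Lrp5 or Lrp6 they stabilise beta-catenin, which then acts with Tcf and Lef factors on target genes, several of which encode inhibitors of the pathway itself. With Ror2 and related receptors some Wnts, Wnt5a among them, act without beta-catenin. In mesenchymal progenitors the beta-catenin branch favours bone over cartilage and fat.

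Expression is given in normalized read counts, which are read counts estimated per gene and put on a common scale by the authors' median normalization. They summed to 13115793 to 19471638 per library in the knockdowns and 13413520 to 13655904 in the controls. Depth, estimated from the value that 1 read takes in each library, was 4580087 to 23196468 reads in the knockdowns and 5447198 to 51801653 in the controls, lowest in replicate 2 of each group. Rnf2 stood at 129, 76.5 and 152 in knockdown replicates 1, 2 and 3, against 815, 829 and 799 in the controls, and Ring1 at 162, 268 and 186 in the knockdowns, against 336, 386 and 374 in the controls. With all 6 libraries Rnf2 passed the test described below (adjusted p = 0.00946 by limma) and Ring1 did not (0.104), and without knockdown replicate 2 both passed (1.97e-09 and 3.86e-06). Knockdown replicate 2 stood apart: across genes its log2 values correlated with those of the other 5 libraries at 0.821 to 0.867, where the other pairs lay at 0.944 to 0.993, and its share of reads from ribosomal protein genes was 20.6%, with 5.05 to 5.79% in those 5. Results are therefore given with and without it. Mesenchymal markers were above 3 estimated reads in every library for 12 of 12 genes, with a summed level of 372588 to 492080 in the knockdowns and 436607 to 460792 in the controls. The summed level of 7 epithelial markers was 17 to 43 in the knockdowns and 15 to 32 in the controls (Cldn4 at 0 in the controls). That of 5 endothelial markers was 111 to 166 in the knockdowns and 98 to 110 in the controls (Cdh5 and Kdr at 0). For 4 neuronal markers it was 157 to 197 in the knockdowns and 63 to 78 in the controls, with Snap25 and Syt1 at 0 in the controls. In each of these 3 lists 1 marker had at least 3 reads in every library, and what part their levels had in the results was not tested.

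Of the 54 genes, 32 had a mean of at least 10 over the 6 libraries and were tested with limma on log2(value + 1), knockdown minus control, adjusted by Benjamini-Hochberg over all 12085 genes that passed this filter. With all 6 libraries, 4 of the 32 changed: Nkd1 rose, and Wnt5b, Fzd8 and Frzb fell. Over all tested genes 4.98% were called, 3.2% higher and 1.78% lower. The groups did not overlap in 14 of the 32, against 44.3% of all tested genes: the 3 knockdowns lay above the 3 controls in 5 (20.5% of all) and below them in 9 (23.7%). The median log2 fold change was −0.18 for the 32 and 0.01 for all tested genes. When knockdown replicate 2 was left out, 11 genes of the 32 rose and 8 others fell, and their median was 0.17. In that comparison 49.9% of all tested genes were called (23.8% higher and 26.1% lower, median −0.02), against 19 of the 32. Without that library the groups did not overlap in 24 of the 32 (14 higher and 10 lower), against 67.9% of all (32.1% higher and 35.8% lower). With a correction for transcript length 4 of the 32 rose and 4 fell (11.6% of all genes called, 7.12% higher and 4.47% lower), and with library weights 12 rose and 8 fell (52.1%, 25.2% and 26.9%). Leaving out any single control library left 0 of all tested genes called. Without knockdown replicate 1, 7 of all tested genes rose and 21 fell, and without knockdown replicate 3, 37 rose and 57 fell. Calls lost in these fits, as given below for single genes, are to be read against these counts. A replicate block, which pairs same-numbered samples, also left 0 of all tested genes called. Every call named below with all 6 libraries was therefore missed with the block as well. An exact permutation test of 3 samples against 3 cannot reach a p under 0.1, and single genes were tested by the model alone. In RNA from whole cultures, fewer cells of a type and less RNA per cell cannot be told apart.

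**Figure D1:**
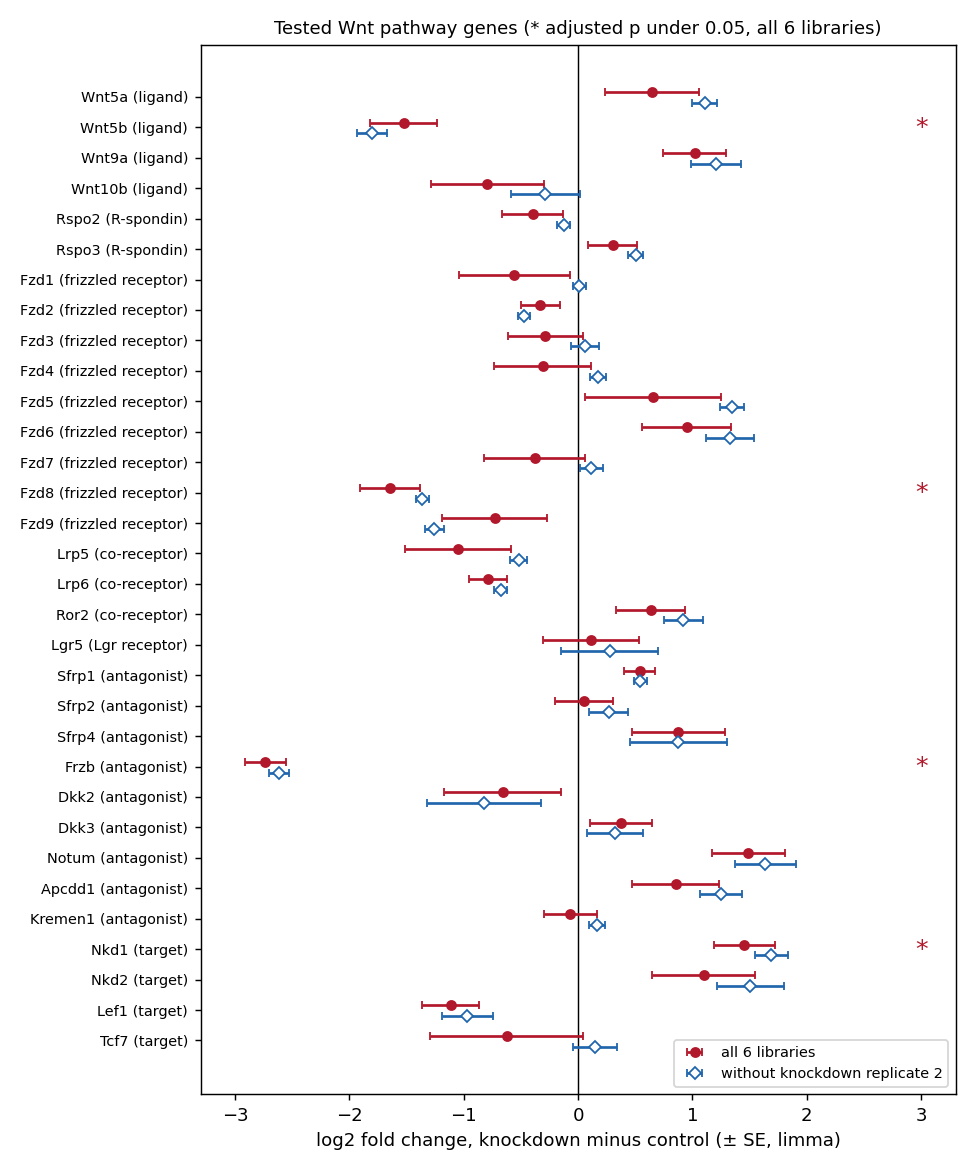
Log2 fold changes (knockdown minus control, x axis) of the 32 tested Wnt pathway genes, with limma standard errors as bars; red circles use all 6 libraries and blue diamonds leave out knockdown replicate 2, and asterisks mark adjusted p under 0.05 with all 6. Frzb stands furthest left at −2.73, and the standard error is smaller without replicate 2 in 30 of the 32.

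Among the ligands, the ratio of Wnt5b to Wnt5a was lower in each knockdown than in each control, a difference that was not tested. Both are best known for signalling without beta-catenin, and both act in growth plate cartilage. Wnt5b stood at 179.8, 293 and 151 in knockdown replicates 1, 2 and 3, against 694, 529 and 525 in the controls. Each knockdown lay below each control, and Wnt5b fell 2.8-fold (log2 fold change −1.53 ± 0.29 SE, adjusted p = 0.0462 by limma). Without knockdown replicate 2 its log2 fold change was −1.80 (± 0.13 SE, adjusted p = 2.01e-06 by limma). The call was missed without any single control library (limma adjusted p = 0.177 to 0.205), without knockdown replicate 1 (0.163) or 3 (0.121), with no filter on low values (0.05003) and with a mean of at least 50 (0.0518).

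Wnt5a stood at 615, 225 and 556 in the knockdowns, against 318, 248 and 253 in the controls. Knockdown replicates 1 and 3 were above every control and replicate 2 below every control, and with all 6 libraries the difference missed the threshold (log2 fold change 0.65 ± 0.41 SE, adjusted p = 0.41 by limma; 95% interval −0.37 to 1.67). Without replicate 2 Wnt5a rose, by 1.11 (± 0.11 SE, adjusted p = 9.03e-06 by limma), and it also passed with a correction for transcript length (limma adjusted p = 0.0405). Per kb of transcript, the ratio of Wnt5b to Wnt5a was 0.69, 3.08 and 0.64 in knockdown replicates 1, 2 and 3, against 5.15, 5.03 and 4.90 in the controls. All 3 knockdown ratios were below the 3 controls, with replicate 2 nearest to them. Wnt5b made up 31.8, 59.3 and 31.1% of the summed per kb level of the 19 ligands in the knockdowns, against 78.4, 75.8 and 75.3% in the controls, and Wnt5a 46.1, 19.3 and 48.5% against 15.2, 15.1 and 15.4%. The summed ligand level per kb was 251, 219 and 215 in the knockdowns, against 392, 309.0 and 309.0 in the controls.

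Wnt9a, which takes part in forming joints, stood at 89.9, 55.3 and 74.6 in the knockdowns, against 27.3, 37.6 and 41.5 in the controls. Each knockdown was above each control, but with all 6 libraries the difference missed the threshold (log2 fold change 1.02 ± 0.28 SE, adjusted p = 0.109 by limma). Without replicate 2 it passed, at 1.21 (± 0.22 SE, adjusted p = 0.000684 by limma). Wnt10b, known to favour bone over fat, was low throughout, at 16.4, 4.25 and 12.1 in the knockdowns, against 16.6, 17.5 and 18.1 in the controls, each knockdown below each control and replicate 2 lowest, and did not pass with all 6 libraries (log2 fold change −0.79 ± 0.49 SE, adjusted p = 0.4 by limma) or without replicate 2 (limma adjusted p = 0.462). Of the 19 ligands these 4 were tested. With all 6 libraries 0 rose and 1 fell by limma, and at an unadjusted p under 0.05 there was 1 in each direction, where 20.5% of all tested genes had such a p (10.8% higher and 9.7% lower). Without replicate 2, 2 of the 4 rose and 1 fell.

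**Figure D2:**
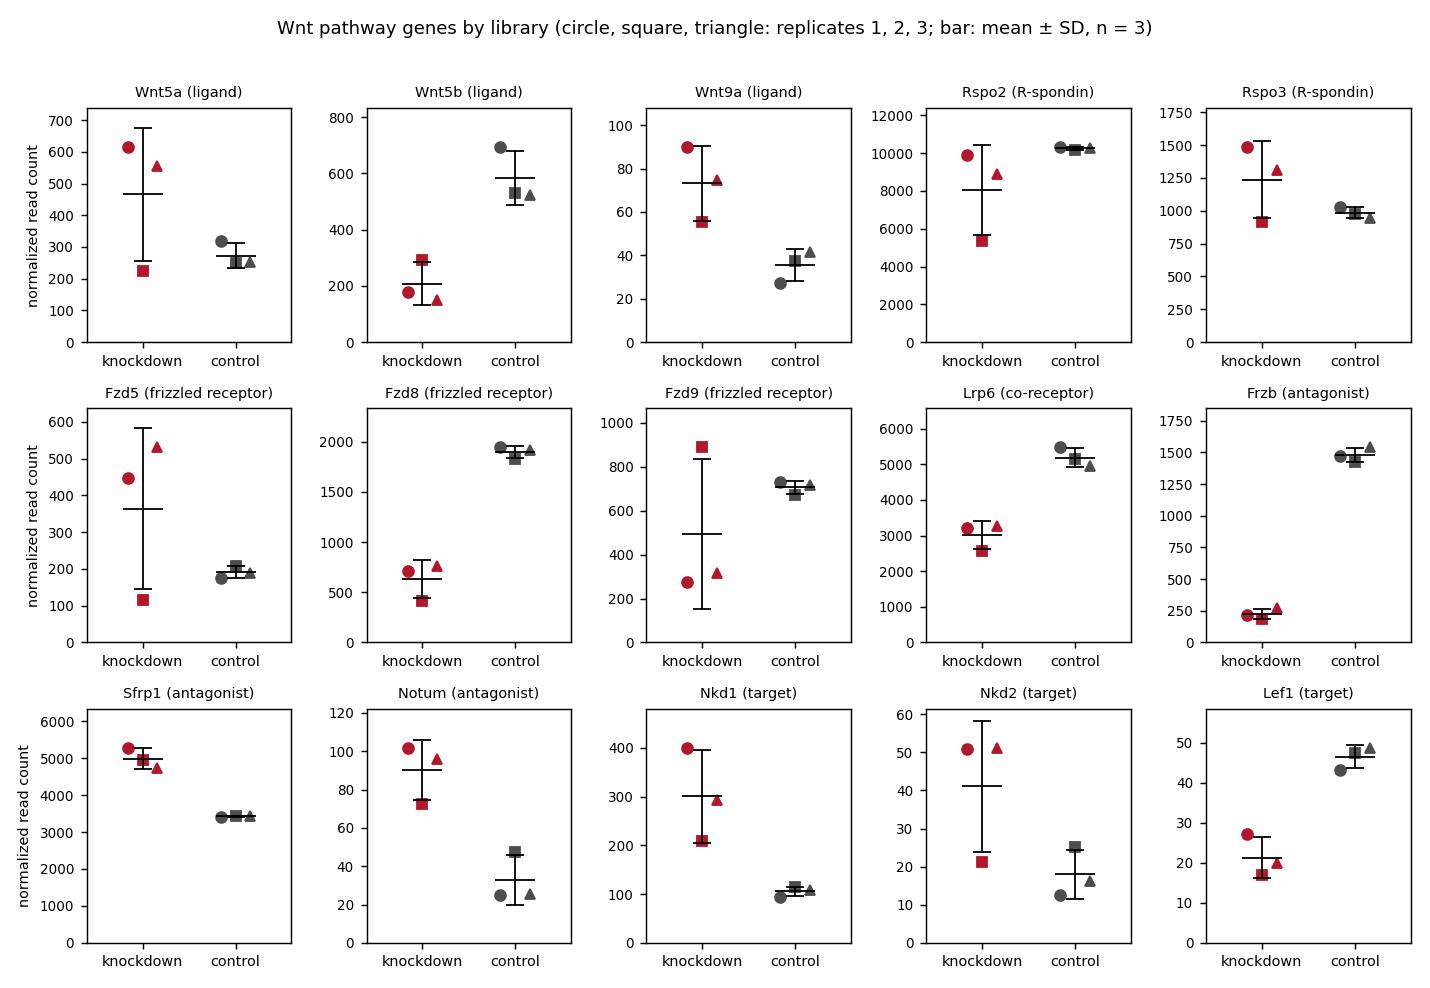
Normalized read counts (y axis, linear from 0) of 15 tested Wnt pathway genes in each library, knockdown left of control, with the mean and SD of 3 libraries. The 3 knockdowns lie well below the 3 controls for Frzb and Fzd8, and replicate 2 (squares) leaves the other knockdowns for Wnt5a, Fzd5 and Fzd9.

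The other 15 ligands, with Rspo1, Fzd10, Lgr6, Sfrp5, Dkk1, Wif1 and Axin2, had a mean under 10 and were not part of the main test. Wnt7a, Wnt9b and Fzd10 were listed at 0 in all 6 libraries, and 9 of these 22 genes stayed under 3 estimated reads in every library. In 7 of the 22, namely Wnt2, Wnt4, Wnt6, Wnt7b, Wnt11, Rspo1 and Dkk1, each knockdown was above each control, and in 0 of the 22 each knockdown was below. In the other 12 that were above 0 in some library, such as Wnt2b and Wnt16, the groups overlapped. Over all 8240 genes with a mean under 10, those at 0 in all 6 libraries included, 5.52% had each knockdown above each control and 1.87% had each below. Wnt4, a ligand of kidney, gonad and joint development, had 7.35, 38.3 and 10.7 in the knockdowns and was listed at 0 in each control. In estimated reads this is 13, 9 and 15 in the knockdowns, with the highest normalized count in replicate 2. Dkk1, a secreted inhibitor that binds Lrp5 and Lrp6, had 9.61, 8.50 and 4.26 in the knockdowns, or 17, 2 and 6 estimated reads, and was likewise listed at 0 in each control. Of 8 Wnt pathway genes listed at 0 in all 3 controls these 2 were above 0 in all 3 knockdowns, and over the whole table this held for 71 of 4715 such genes (1.51%). Both counts include genes at 0 in all 6 libraries, 3 of the 8 among them, which could not be above 0 in the knockdowns. Of the 20325 genes of the table, 16507 were above 0 in some library, so the share among genes with any read is higher than 1.51%.

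Wnt6 stood at 14.1, 8.50 and 6.40 in the knockdowns, against 0.78, 0 and 1.81 in the controls, or 25, 2 and 9 estimated reads against 3, 0 and 2. It is in the authors' deposited table of differential genes with a fold of 11.3, knockdown over control. The authors' deposited table holds 2 of the 54 genes, Wnt6 and Frzb. Wnt2b, as one whose groups overlapped, stood at 6.79, 4.25 and 7.11 in the knockdowns, against 8.55, 15.0 and 5.42 in the controls. Wnt11, which guides cell movement in the embryo, stood at 3.96, 8.50 and 6.40 in the knockdowns, against 0.78, 0 and 1.81 in the controls, and Rspo1 at 3.39, 4.25 and 2.84 in the knockdowns, against 0.52, 0 and 0 in the controls. With no filter on low values, 3 of the 22 rose and 0 fell in limma: Wnt4 (adjusted p = 0.0298), Dkk1 (0.0152) and Rspo1 (0.0319). In that fit 3.81% of 16507 genes were called, 2.64% higher and 1.18% lower. Wnt6 (adjusted p = 0.0524 by limma), Wnt11 (0.0926) and Wnt7b (0.134) missed the threshold there. These values rest on few reads: a floor of 3 reads is 1.70, 12.8 and 2.13 normalized counts in knockdown replicates 1, 2 and 3, against 0.777, 7.52 and 2.71 in the controls. The knockdown values of Dkk1, Wnt6, Wnt7b, Wnt11 and Rspo1 in replicate 2 lie under that floor. That of Wnt7b, with 4, 2 and 2 estimated reads in the knockdowns, is also under it in replicate 3. A canonical target and feedback scaffold, Axin2, stood at 10.2, 4.25 and 12.8 in the knockdowns, against 5.70, 0 and 1.81 in the controls, with the groups overlapping.

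**Figure D3:**
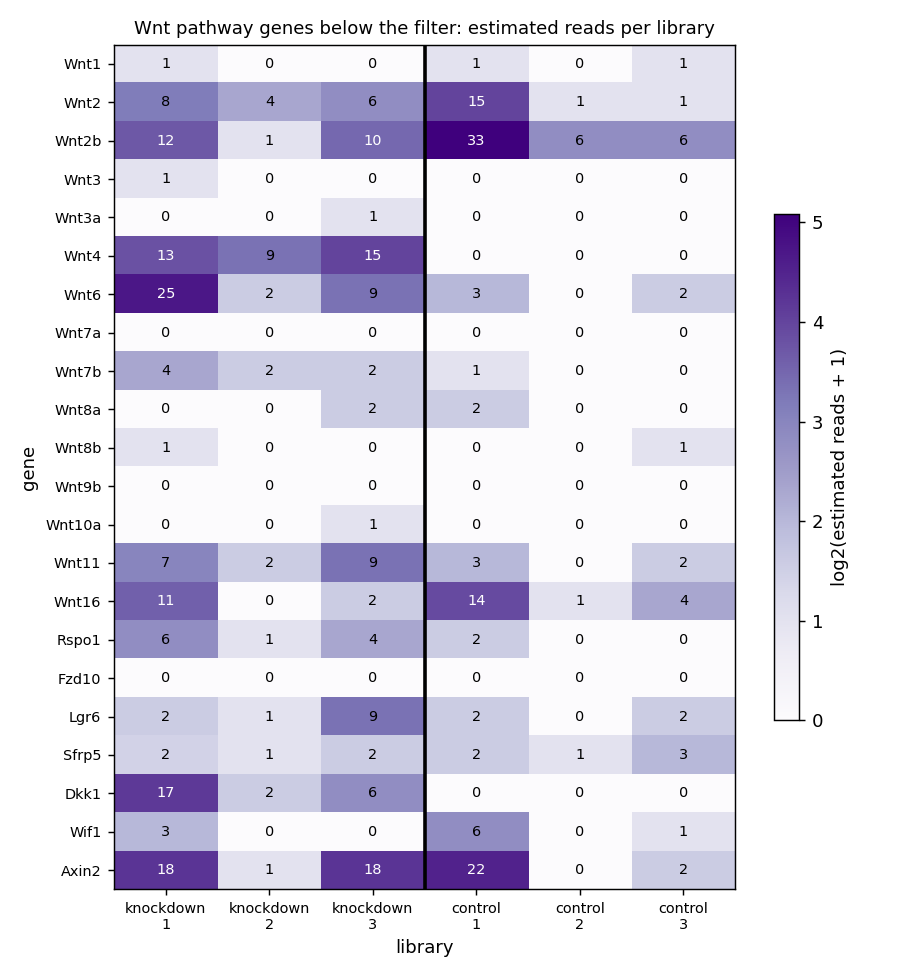
Estimated reads (printed in each cell; colour on a log2 scale) of the 22 Wnt pathway genes with a mean under 10, in knockdown libraries on the left and control libraries on the right. Wnt4 has 13, 9 and 15 estimated reads in the knockdowns and 0 in each control, while Wnt7a, Wnt9b and Fzd10 are at 0 throughout.

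Polycomb complexes are known to occupy CpG-rich promoters of silent developmental genes, so the promoter windows of Wnt4, Wnt6 and Dkk1, higher in the knockdowns than in the controls, where they were at or near 0, are shown beside those of Frzb, which fell, and Nkd1, which rose. The windows are the 250 bases before each start in RefSeq's table, 5′ to 3′ along the gene's strand, in build GRCm38.p6, a newer build than the mm9 of the authors' alignment, and capitals mark each CG dinucleotide. Wnt4 is chr4:137277385-137277634, plus strand, Wnt6 chr1:74771642-74771891, plus strand, Dkk1 chr19:30549497-30549746, minus strand, Frzb chr2:80447397-80447646, minus strand and Nkd1 chr8:88527383-88527632, plus strand.
Wnt4: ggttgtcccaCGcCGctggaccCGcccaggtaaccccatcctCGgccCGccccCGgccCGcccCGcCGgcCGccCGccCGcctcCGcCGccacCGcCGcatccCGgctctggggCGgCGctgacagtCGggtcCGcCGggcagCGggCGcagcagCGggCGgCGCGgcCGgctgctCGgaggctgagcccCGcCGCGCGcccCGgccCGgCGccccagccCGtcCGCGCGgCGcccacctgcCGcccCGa
Wnt6: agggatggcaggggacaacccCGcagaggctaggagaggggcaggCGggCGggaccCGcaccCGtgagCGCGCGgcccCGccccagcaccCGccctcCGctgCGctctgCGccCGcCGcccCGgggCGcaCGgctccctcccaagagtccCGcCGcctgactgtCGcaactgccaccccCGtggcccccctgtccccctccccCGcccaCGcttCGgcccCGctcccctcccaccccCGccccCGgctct
Dkk1: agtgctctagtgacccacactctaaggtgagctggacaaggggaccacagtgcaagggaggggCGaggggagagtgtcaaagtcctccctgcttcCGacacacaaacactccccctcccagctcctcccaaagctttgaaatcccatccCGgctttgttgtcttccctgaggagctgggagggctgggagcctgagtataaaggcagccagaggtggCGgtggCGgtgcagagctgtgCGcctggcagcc
Frzb: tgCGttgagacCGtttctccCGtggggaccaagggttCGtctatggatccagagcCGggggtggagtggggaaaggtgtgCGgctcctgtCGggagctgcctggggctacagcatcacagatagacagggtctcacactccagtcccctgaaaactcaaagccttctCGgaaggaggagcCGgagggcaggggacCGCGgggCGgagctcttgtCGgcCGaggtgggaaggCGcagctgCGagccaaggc
Nkd1: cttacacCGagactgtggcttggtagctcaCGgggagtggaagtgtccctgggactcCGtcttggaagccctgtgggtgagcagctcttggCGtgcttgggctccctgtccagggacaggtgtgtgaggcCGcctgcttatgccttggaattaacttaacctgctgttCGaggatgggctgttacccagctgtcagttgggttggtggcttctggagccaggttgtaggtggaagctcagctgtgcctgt
Wnt4 held 44 CG dinucleotides, Wnt6 28, Dkk1 6, Frzb 16 and Nkd1 6. At least 44 were found in 0.5% of the 32851 windows of the RefSeq table, at least 28 in 7.6% and at least 6 in 50.4%, so Wnt4 and Wnt6 are at the CG-rich end and Dkk1 and Nkd1 near the middle. The table held 42 windows for 35 of the 54 genes, with a median of 18.5 CG dinucleotides against 6 over all windows. CG-rich windows were not confined to genes that were higher in the knockdowns. Fzd10 and Wnt7a, at 0 in all 6 libraries, held 37 and 34, and 1 start of Wnt5b, which fell, held 35. Wnt9a and 1 start of Wnt11, with each knockdown above each control, held 48 and 37. A relation of CG count to the change was not tested. The letters CTTTGAA or CTTTGAT, forms of the Tcf and Lef motif searched on both strands (each spelling contains CTTTGA), were in 3 of the 42 windows (7.1%), those of Dkk1, Wnt11 and 1 start of Wnt5b, and in 7.5% of all windows. A match is a description of the letters and not a site of binding.

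The R-spondins, secreted proteins that raise Wnt sensitivity by keeping frizzleds at the cell surface, ranged from very low to the most abundant of these transcripts: Rspo1 was below the filter, as described above, and Rspo2 led. Among the 32 tested genes the mean level per kb of transcript in the controls ran from 4.14 for Lgr5 to 3192 for Rspo2, which also led in the knockdowns at 2507. It stood at 9906, 5352 and 8922 in the knockdowns, against 10321, 10188 and 10269 in the controls. Each knockdown was below each control, with replicate 2 lowest, and the difference did not pass with all 6 libraries (log2 fold change −0.40 ± 0.27 SE, adjusted p = 0.432 by limma; 95% interval −1.06 to 0.27) or without replicate 2 (log2 fold change −0.13, limma adjusted p = 0.0951). Rspo3 stood at 1485, 914 and 1314 in the knockdowns, against 1029.5, 975 and 948 in the controls, replicate 2 below the controls and replicates 1 and 3 above. It missed the threshold with all 6 libraries (log2 fold change 0.30 ± 0.21 SE, adjusted p = 0.445 by limma) and rose without replicate 2, by 0.51 (± 0.07 SE, adjusted p = 5.77e-05 by limma). Of 2 tested R-spondins, 0 rose and 0 fell in limma with all 6 libraries, and 0 had an unadjusted p under 0.05.

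Of the 10 frizzled receptors, the surface proteins that bind Wnts, 9 were tested and 1 changed. Fzd8 stood at 709, 412 and 765 in knockdown replicates 1, 2 and 3, against 1942, 1831 and 1919.5 in the controls. Each knockdown lay below each control, and Fzd8 fell 3.02-fold (log2 fold change −1.64 ± 0.26 SE, adjusted p = 0.0303 by limma), and without replicate 2 the log2 fold change was −1.36 (± 0.06 SE, adjusted p = 9.37e-09 by limma). The call was missed without any single control library (limma adjusted p = 0.148 to 0.168), without knockdown replicate 1 (0.104) or 3 (0.0722) and with every library scaled to the same total (0.107). Fzd8 took 5.0, 3.8 and 5.2% of the summed frizzled level per kb in the knockdowns, against 11.1, 10.5 and 11.1% in the controls.

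The calls of Fzd5, Fzd6 and Fzd9 turned on knockdown replicate 2. Fzd5 stood at 446, 115 and 530.1 in the knockdowns, against 176, 208 and 189.7 in the controls, with replicates 1 and 3 above every control and replicate 2 below. With all 6 libraries its log2 fold change was 0.65 (limma adjusted p = 0.518), and without replicate 2 it rose, by 1.34 (± 0.10 SE, adjusted p = 9.32e-07 by limma). Fzd9, a receptor that supports bone formation in mice, stood at 274, 889 and 318 in the knockdowns, against 732, 674 and 716 in the controls, with replicate 2 above every control and replicates 1 and 3 below. Its log2 fold change was −0.73 (limma adjusted p = 0.406) with all 6, and without replicate 2 it fell, at −1.26 (± 0.08 SE, adjusted p = 2.01e-07 by limma). Fzd6, a receptor of planar cell polarity, stood at 97.2, 46.8 and 112 in the knockdowns, against 33.4, 52.6 and 38.8 in the controls, with replicate 2 inside the control range. Its log2 fold change was 0.95 (limma adjusted p = 0.247) with all 6, and it rose by 1.33 (± 0.21 SE, adjusted p = 0.000243 by limma) without replicate 2. It also passed with the length correction (limma adjusted p = 0.0442), while Fzd5 and Fzd9 did not (limma adjusted p = 0.189 and 0.29).

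The most abundant frizzleds per kb in the controls were Fzd2 (866), Fzd1 (784) and Fzd7 (394). Fzd2 stood at 2355, 3093 and 2215 in the knockdowns, against 3165, 3142 and 3215 in the controls. Each knockdown was below each control, replicate 2 by a small margin, and the difference missed the threshold with all 6 libraries (log2 fold change −0.33 ± 0.17 SE, adjusted p = 0.341 by limma). Without replicate 2 Fzd2 fell, at −0.47 (± 0.05 SE, adjusted p = 1.19e-05 by limma), while with the length correction it was not called (−0.17, limma adjusted p = 0.66). Fzd1 and Fzd7 were low in knockdown replicate 2: Fzd1 stood at 3349, 1016 and 3277 in the knockdowns, against 3514, 3215 and 3141 in the controls, and Fzd7 at 1779.7, 684 and 2092 in the knockdowns, against 1576, 1944 and 1838 in the controls. Neither passed with all 6 libraries, where the log2 fold change was −0.56 (limma adjusted p = 0.507) for Fzd1 and −0.38 (limma adjusted p = 0.594) for Fzd7. Without replicate 2 neither passed and both turned sign, to 0.01 (limma adjusted p = 0.884) and 0.12 (0.353). Fzd3 stood at 157, 76.5 and 161 in the knockdowns, against 174, 143 and 143 in the controls, and Fzd4 at 1249, 476 and 1367 in the knockdowns, against 1111, 1253 and 1115 in the controls, both with replicate 2 below every control. Fzd3 and Fzd4 did not pass either (limma adjusted p = 0.593 and 0.648). Of the 9 frizzleds 0 rose and 1 fell by limma with all 6 libraries, the same counts as at an unadjusted p under 0.05 (20.5% of all genes), and 2 rose and 3 fell without replicate 2. The summed frizzled level per kb was 2384, 1806 and 2465 in the knockdowns, against 2916, 2906 and 2890.3 in the controls.

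**Figure D4:**
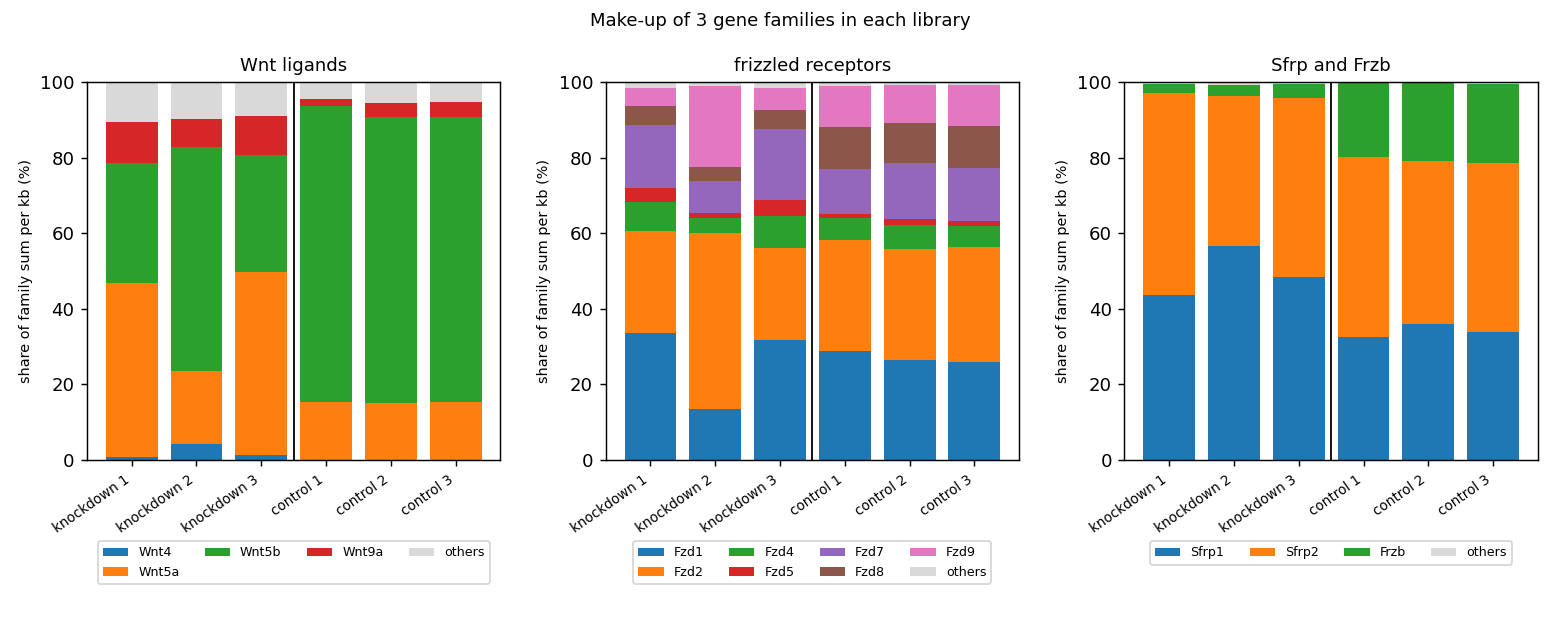
Share (y axis, %) of each gene in the summed level per kb of its family in every library, for the Wnt ligands, the frizzled receptors and the Sfrp and Frzb antagonists; genes that stay under 4% in every library are grouped as others. Wnt5b takes 31.1 to 59.3% of the ligand sum in the knockdowns and 75.3 to 78.4% in the controls, and Frzb 2.5 to 3.8% and 19.4 to 21.0% of its family.

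Of the 3 co-receptors 0 rose and 0 fell by limma with all 6 libraries, and 1 had an unadjusted p under 0.05 (20.5% of all genes). Lrp6 stood at 3218, 2568 and 3278 in the knockdowns, against 5473, 5149.7 and 4949 in the controls. Each knockdown lay below each control, and the difference was just outside the threshold (log2 fold change −0.79 ± 0.16 SE, adjusted p = 0.0547 by limma; 95% interval −1.19 to −0.39). Without replicate 2 Lrp6 fell, at −0.68 (± 0.06 SE, adjusted p = 1.53e-06 by limma), while with the length correction its log2 fold change was −0.29 (adjusted p = 0.452 by limma). Lrp5, known for its part in setting bone mass, stood at 2223, 799 and 2651 in the knockdowns, against 3278, 3561 and 3597 in the controls, with replicate 2 lowest and each knockdown below each control. Its log2 fold change was −1.05 (limma adjusted p = 0.276) with all 6 libraries, and it fell without replicate 2, at −0.52 (± 0.07 SE, adjusted p = 0.00017 by limma). Ror2, a receptor for Wnt5a, stood at 118, 59.5 and 99.5 in the knockdowns, against 50.5, 55.1 and 65.9 in the controls, with knockdown replicate 2 inside the control range. It reached 0.64 (limma adjusted p = 0.303) with all 6 and rose by 0.92 (± 0.17 SE, adjusted p = 0.000886 by limma) without replicate 2.

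Of the Lgr receptors, which bind R-spondins, Lgr5 was close to the filter, at 11.1, 8.63 and 14.2 in the knockdowns, against 7.52, 17.7 and 7.79 in the controls, and did not pass (log2 fold change 0.11 ± 0.42 SE, adjusted p = 0.869 by limma; 95% interval −0.92 to 1.15). Lgr6 stood at 1.13, 4.25 and 6.40 in the knockdowns, against 0.52, 0 and 1.81 in the controls and was below the filter. For both, the groups overlapped and the libraries held few reads (20, 2 and 20 estimated reads of Lgr5 in the knockdowns, against 29, 7 and 9 in the controls). Their relative Lgr4, from a further list described below, stood at 3721, 1334.5 and 3832 in the knockdowns, against 5841, 5516 and 5226 in the controls. Each knockdown was below each control, with replicate 2 lowest. Lgr4 did not pass with all 6 libraries (log2 fold change −1.05 ± 0.435 SE, adjusted p = 0.253 by limma). It fell without replicate 2, at −0.55 (adjusted p = 1.09e-05 by limma), where 49.9% of all genes were called.

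Among the antagonists Frzb fell, by the largest log2 fold change of the 32 tested genes. It encodes a secreted frizzled-like protein first found in cartilage that binds Wnts outside the cell. Frzb stood at 215, 187 and 269 in knockdown replicates 1, 2 and 3, against 1471, 1423 and 1538 in the controls. Each knockdown was far below each control, and replicate 2 lay close to the other knockdowns. Frzb averaged 224 ± 41.8 in the knockdowns and 1478 ± 57.8 in the controls (SD, n = 3 each), and fell 6.6-fold (log2 fold change −2.73 ± 0.18 SE, adjusted p = 0.00535 by limma). The authors' deposited table gives it a fold of 0.153, knockdown over control. Frzb kept its call without each knockdown library in turn (limma adjusted p = 3.51e-09 to 0.0413). The call was missed without each control library in turn (limma adjusted p = 0.0541 to 0.0776), where 0 of all tested genes were called. Frzb is compared with its family per kb next. It took 2.5, 3.0 and 3.8% of the summed level per kb of the Sfrp family with Frzb in the knockdowns, against 19.4, 20.8 and 21.0% in the controls.

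Its relatives Sfrp1 and Sfrp2, also secreted Wnt-binding proteins, had other values. Sfrp1 stood at 5279.6, 4954 and 4727 in the knockdowns, against 3416, 3425 and 3445 in the controls. Each knockdown was above each control and replicate 2 lay between the others, yet the difference missed the threshold with all 6 libraries (log2 fold change 0.54 ± 0.14 SE, adjusted p = 0.0938 by limma), and without replicate 2 Sfrp1 rose by 0.54 (± 0.06 SE, adjusted p = 1.01e-05 by limma). Sfrp2 stood at 2969, 1594 and 2118 in the knockdowns, against 2314, 1879 and 2078 in the controls, with overlapping groups, and did not pass (log2 fold change 0.05 ± 0.26 SE, adjusted p = 0.907 by limma; 95% interval −0.58 to 0.68). Sfrp4 stood at 21.5, 17.0 and 13.5 in the knockdowns, against 11.4, 5.01 and 11.7 in the controls and did not pass with all 6 libraries or without replicate 2 (limma adjusted p = 0.292 and 0.108). The summed level per kb of Sfrp1, Sfrp2, Sfrp4, Sfrp5 and Frzb was 2771, 2000.3 and 2232 in the knockdowns, against 2410.2, 2178 and 2322 in the controls, so the groups overlapped in the sum.

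Notum, an enzyme that removes the lipid from Wnts and is itself a target gene, stood at 102, 72.3 and 95.9 in the knockdowns, against 24.9, 47.6 and 25.3 in the controls. Each knockdown was above each control, and the difference was just outside the threshold (log2 fold change 1.49 ± 0.32 SE, adjusted p = 0.0647 by limma). Without replicate 2 Notum rose by 1.64 (± 0.27 SE, adjusted p = 0.000403 by limma). Apcdd1, a membrane inhibitor and target gene, stood at 112, 46.8 and 102 in the knockdowns, against 54.1, 40.1 and 40.6 in the controls, with replicate 2 inside the control range. Its log2 fold change was 0.85 (limma adjusted p = 0.279) with all 6, and it rose by 1.25 (± 0.18 SE, adjusted p = 0.000158 by limma) without replicate 2. Kremen1, which works with Dkk1 to remove Lrp6 from the surface, stood at 850.4, 493 and 755 in the knockdowns, against 739, 714 and 690.1 in the controls, with replicate 2 below every control and replicates 1 and 3 above, and did not pass (log2 fold change −0.07 ± 0.23 SE, adjusted p = 0.861 by limma). Dkk2, a relative of Dkk1, stood at 36.8, 34.0 and 15.6 in the knockdowns, against 79.2, 35.1 and 28.9 in the controls, and Dkk3 at 80.3, 68.0 and 46.2 in the knockdowns, against 52.6, 40.1 and 54.2 in the controls, both with overlapping groups. Dkk2 and Dkk3 did not pass either, with all 6 libraries (limma adjusted p = 0.471 and 0.455) or without replicate 2 (0.215 and 0.299). Of 9 tested antagonists 0 rose and 1 fell by limma with all 6 libraries (2 and 1 at an unadjusted p under 0.05, against 20.5% of all genes), and 3 rose and 1 fell without replicate 2.

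Among the intracellular target genes, Nkd1 rose. Nkd1 binds Dishevelled and is a feedback inhibitor of the pathway. It stood at 399.7, 208 and 293 in knockdown replicates 1, 2 and 3, against 95.0, 114 and 107 in the controls. Each knockdown lay above each control, by 2.85-fold in the mean (log2 fold change 1.45 ± 0.27 SE, adjusted p = 0.0431 by limma), and without replicate 2 the log2 fold change was 1.69 (± 0.14 SE, adjusted p = 1.89e-06 by limma). The call was missed without any single control library (limma adjusted p = 0.172 to 0.203), without knockdown replicate 1 (0.12) or 3 (0.13) and with total scaling (0.198). Its paralog Nkd2 stood at 50.9, 21.3 and 51.2 in the knockdowns, against 12.7, 25.1 and 16.3 in the controls, with knockdown replicate 2 inside the control range. Nkd2 had a log2 fold change of 1.10 (limma adjusted p = 0.248) with all 6, and rose by 1.50 (± 0.29 SE, adjusted p = 0.00114 by limma) without replicate 2.

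Lef1 and Tcf7 encode DNA-binding partners of beta-catenin and are themselves target genes. Lef1 stood at 27.1, 17.0 and 19.9 in the knockdowns, against 43.2, 47.6 and 48.8 in the controls. Each knockdown was below each control, 2.18-fold in the mean, and the difference was just outside the threshold (log2 fold change −1.11 ± 0.25 SE, adjusted p = 0.0682 by limma). It fell without replicate 2, at −0.97 (± 0.22 SE, adjusted p = 0.00348 by limma), and with the length correction (limma adjusted p = 0.0364). Tcf7 stood at 45.8, 8.50 and 46.9 in the knockdowns, against 42.4, 45.1 and 37.9 in the controls. Knockdown replicate 2 held 2 estimated reads, and the other knockdowns lay just above the controls. It did not pass with all 6 libraries (log2 fold change −0.62 ± 0.67 SE, adjusted p = 0.57 by limma), and without replicate 2 its sign turned (log2 fold change 0.15, limma adjusted p = 0.553). Of 4 tested targets 1 rose and 0 fell by limma with all 6 libraries (1 and 1 at an unadjusted p under 0.05, against 20.5% of all genes), and 2 rose and 1 fell without replicate 2.

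Knockdown replicate 2 lay below the mean of knockdown replicates 1 and 3 in 27 of the 32 tested genes (84.4%), against 53.2% of all tested genes, and the median log2 difference was −0.71 against −0.10. The lowest were Tcf7 (−2.32), Fzd5 (−2.07), Fzd1 (−1.70) and Lrp5 (−1.60), and the highest were Fzd9 (1.59) and Wnt5b (0.83). Across the 32 genes the Spearman correlation of this difference with transcript length was −0.25, and across 10895 tested genes it was −0.60. These are correlations across genes of the same libraries and not across samples. The median transcript length was 3393 nt for the 32 genes and 2774 nt for the 10895. What part transcript length, depth or RNA quality had in the differences of this library was not tested.

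**Figure D5:**
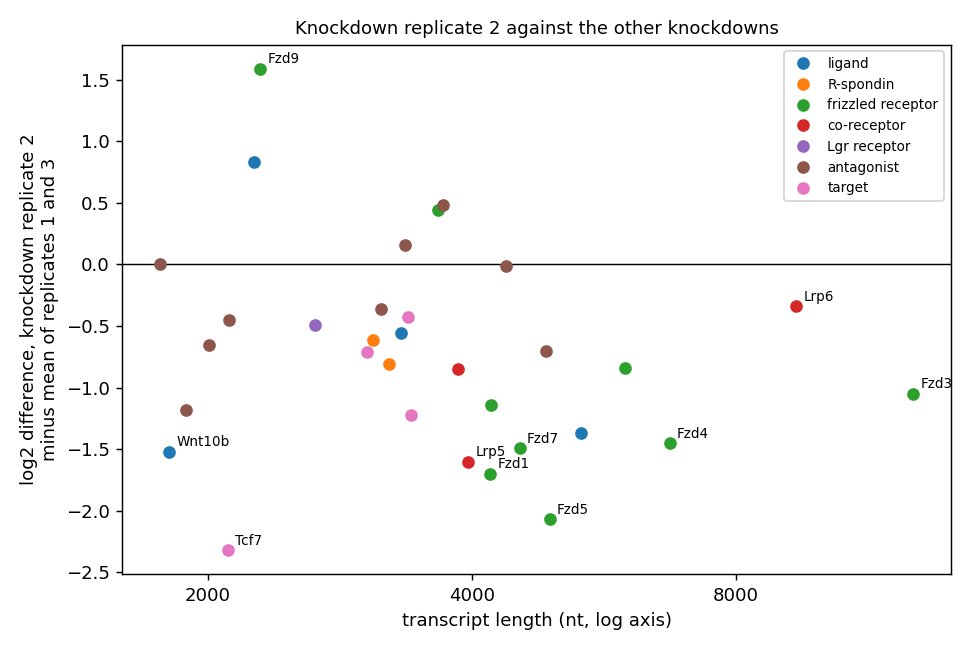
Log2 difference of knockdown replicate 2 from the mean of knockdown replicates 1 and 3 (y axis) against transcript length (x axis, nt, log scale) for the 32 tested Wnt pathway genes, coloured by role. Most points lie under 0, with Tcf7 at −2.32 and Fzd5 at −2.07, and Fzd9 stands above at 1.59.

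The rest of the pathway was described from 5 further lists of 80 genes in all, whose counts are to be read against the 4.98% of all genes called with all 6 libraries, the 49.9% called without knockdown replicate 2 and the 20.5% with an unadjusted p under 0.05. The 7 calls named from them with all 6 libraries were lost without any single control library (limma adjusted p = 0.0536 to 0.276). In those fits 0 of all tested genes were called. The calls other than Bmp4 and Fgf18 were also lost without knockdown replicate 1 or 3 (limma adjusted p = 0.0631 to 0.174). Bmp4 passed without either (0.0362 and 0.0204), and Fgf18 missed the threshold without replicate 1 (0.0578) and passed without replicate 3 (0.0456). With total scaling Gpc4, Porcn, Tcf7l2 and Prickle1 missed it (0.0569 to 0.149), and Porcn also with no filter (0.0675), a mean of at least 50 (0.0518) or upper-quartile scaling (0.0575). Of 6 tested genes of Wnt secretion and receptor turnover 1 rose and 1 fell with all 6 libraries, and 3 rose and 2 fell without replicate 2. Their median log2 fold change was −0.13 with all 6 and 0.26 without replicate 2. Gpc4, a cell surface proteoglycan that binds Wnts, rose: it stood at 3537, 2751 and 2982 in the knockdowns, against 1412, 1346 and 1329 in the controls (log2 fold change 1.17 ± 0.15 SE, adjusted p = 0.0165 by limma). Porcn, the enzyme that attaches the lipid to Wnts, fell: it stood at 116, 119 and 111 in the knockdowns, against 202, 183 and 195 in the controls (log2 fold change −0.74 ± 0.15 SE, adjusted p = 0.0491 by limma). In both, the groups did not overlap and knockdown replicate 2 lay near the other knockdowns. Of 15 genes of the destruction complex, which breaks down beta-catenin, and Dishevelled, 0 rose and 0 fell by limma with all 6 libraries (0 and 3 at an unadjusted p under 0.05), and 1 rose and 6 fell without replicate 2. Their median log2 fold change was −0.40 with all 6 and −0.14 without replicate 2. The most abundant per kb in the controls were 2 casein kinase genes that did not pass: Csnk1a1, at 2318, 1122 and 2475 in the knockdowns, against 2898, 3167 and 2951 in the controls (log2 fold change −0.69 ± 0.33 SE, adjusted p = 0.302 by limma), and Csnk1d, at 3118, 2389 and 3130.2 in the knockdowns, against 2986, 3101 and 3058 in the controls (log2 fold change −0.09 ± 0.16 SE, adjusted p = 0.725 by limma).

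Of 15 genes of beta-catenin and its nuclear partners 0 rose and 1 fell by limma (1 and 3 at an unadjusted p under 0.05), with a median log2 fold change of −0.27. Without replicate 2, 2 rose and 8 fell, where 49.9% of all genes were called, and the median was −0.25. Tcf7l2, a beta-catenin partner on DNA, stood at 964, 591 and 906 in the knockdowns, against 2206, 1962 and 2031 in the controls. It fell 2.52-fold, each knockdown below each control (log2 fold change −1.36 ± 0.22 SE, adjusted p = 0.0323 by limma). Of 15 tested genes of planar cell polarity and other Wnt receptors 0 rose and 1 fell (0 and 2 unadjusted), with a median of −0.10. Without replicate 2, 3 rose and 3 fell, with a median of −0.005. Prickle1, a cytoplasmic polarity protein, stood at 144, 132 and 125 in the knockdowns, against 334, 281 and 290.0 in the controls, and fell (log2 fold change −1.17 ± 0.16 SE, adjusted p = 0.0189 by limma).

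Of 14 tested genes from a list of 20 further Wnt target genes, 3 rose and 0 fell by limma (5 and 1 at an unadjusted p under 0.05), with a median log2 fold change of 0.39. Without replicate 2, 9 rose and 2 fell, where 49.9% of all genes were called, and the median was 0.73. Bmp4, a bone morphogenetic protein, stood at 5622, 5222 and 4638 in the knockdowns, against 617, 704 and 722 in the controls, and rose 7.58-fold (log2 fold change 2.92 ± 0.15 SE, adjusted p = 0.00287 by limma). Fgf18, a growth factor of cartilage and bone, stood at 123, 97.8 and 95.2 in the knockdowns, against 20.2, 20.1 and 19.0 in the controls, and rose 5.34-fold (log2 fold change 2.35 ± 0.20 SE, adjusted p = 0.00758 by limma). Ccnd1, the gene of cyclin D1, stood at 7158, 8664 and 7514 in the knockdowns, against 3132, 3375 and 3194 in the controls, and rose 2.41-fold (log2 fold change 1.26 ± 0.15 SE, adjusted p = 0.0139 by limma). In all 3, knockdown replicate 2 lay among or next to the other knockdowns and far from the controls. These genes are known to answer to other pathways as well as to Wnt.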

How the data were processed

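RNA from 6 samples was sequenced after TruSeq library preparation, per the labels' protocols. Bowtie 1.0.0, RSEM 1.2.12 and build mm9 are named in the submitters' processing notes. The sources used here do not give the annotation or say whether strand was used. The deposited signal values are read counts estimated by the authors and divided by a size factor (median normalization), and the authors' fold is the ratio of the group means. Since 88.5 to 90.8% of values up to 20 reads were whole within 0.1 read, reads were not recovered and no count test was used.

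The values were tested with limma 3.58.1 in R 4.3.3 on log2(value + 1), for genes with a mean of at least 10, with the trend and robust options, two-sided, and an adjusted p under 0.05 called a gene. Results are on the log2(value + 1) scale, which understates changes of low genes. Alternatives covered pseudocounts, filters, scalings, a replicate block, library weights, length correction, no trend and robust options, and each library left out. Transcript lengths are medians over protein-coding transcripts of GENCODE M21. Floors in reads cover counting error only, and 95% intervals of fold changes come from limma's standard errors, that is from the spread between libraries. The test was also run on simulated data drawn with the spread of the controls. These held no library like knockdown replicate 2, so they cannot show how the test does on these samples. No 2 libraries agreed within counting noise, and none were merged.

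The 54 genes and the pathway lists were chosen with earlier results of these data known. Genes past the threshold were named with values in every library, with up to 4 more per role by adjusted p, the 3 most abundant per role, and from each pathway list up to 4 called genes or the 2 most abundant. Lgr4 was named besides, as a relative of Lgr5 and Lgr6. The low genes described in detail were chosen after their values were seen. The result of 1 further list of cell type markers is not reported here.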

Additional observations from a re-analysis of the deposited data

How the results depend on the processing

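With an adjusted p from limma throughout, the 4 calls held unevenly: Frzb was called in 13 of 17 settings, Fzd8 and Nkd1 in 10 and Wnt5b in 9, the main setting included. Over all genes, 387 rose and 215 fell, against 184 and 116 with total scaling, 3048 and 3254 with library weights, 776 and 487 with the length correction, and 0 to 2855 and 0 to 3136 when 1 library was left out. Of the 54 genes 1 rose and 3 fell, against 4 higher with no filter, 0 higher with total scaling, 12 higher and 8 lower with library weights, 4 higher with the length correction, and 0 to 11 higher and 0 to 8 lower when 1 library was left out. Without knockdown replicate 1, 0 rose and 1 fell, as without knockdown replicate 3. Without control replicate 1, 2 or 3, 0 of the 54 and 0 of all tested genes were called. In those fits 10, 11 and 10 of the 54 (1495, 1529 and 1475 of all genes) had an unadjusted p under 0.05. Rspo3, Lrp5, Ror2, Sfrp1, Notum, Apcdd1 and Nkd2, called without knockdown replicate 2, were not called with the length correction (limma adjusted p = 0.0569 to 0.197). Wnt9a was called in both. The weights gave knockdown replicate 2 a weight of 0.017 and the other libraries 1.446 to 3.14. Over all genes the median log2 fold change was −0.14 with total scaling, against 0.01.

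The deviations of same-numbered samples from their group means correlated at 0.17, −0.051 and −0.051. Knockdown replicate 2 stood apart and weighs on the knockdown means, so these values cannot decide whether same-numbered samples are paired. The labels do not say either, and the main test did not pair them. With the replicate block 0 genes rose and 0 fell, and 0 and 0 of the 54, with 1866 genes and 9 of the 54 at an unadjusted p under 0.05.

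Values that turned sign belong to genes not called with all 6 libraries. With library weights the log2 fold change was 0.010 for Fzd1, 0.044 for Fzd3, 0.170 for Fzd4, 0.091 for Fzd7, 0.163 for Tcf7 and 0.194 for Kremen1, which was then called (adjusted p = 0.0316). With the length correction it was 0.304 for Fzd3, 0.083 for Fzd4, 0.210 for Kremen1 and −0.076 for Sfrp2, and with total scaling −0.010 for Lgr5 and −0.093 for Sfrp2. When 1 library was left out it ran from −0.848 to 0.012 for Fzd1, −0.471 to 0.062 for Fzd3, −0.585 to 0.174 for Fzd4, −0.688 to 0.117 for Fzd7, −0.082 to 0.279 for Lgr5, −0.181 to 0.268 for Sfrp2, −0.227 to 0.166 for Kremen1 and −1.018 to 0.149 for Tcf7. The cause of these turns was not tested, and the low depth of replicate 2 in each group limits the genes with few reads.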
